A study of Mus musculus with 33 samples.

Results

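Molecular chaperones of the heat shock protein, DnaJ and chaperonin families were followed through single mouse blastocysts that had been cloned from different somatic cells or made by in vitro fertilisation (IVF). The members were all array probes named for an Hspa, Hspb, Hspd, Hspe, Hsp90, Dnaja, Dnajb, Dnajc or numbered Bag gene, for Tcp1, Cct2, Cct3, Cct4, Cct5, Cct7 or Cct8, or for Hsf1, with Hspbap1 dropped. This name rule, which used no measured value, gave 143 probes of 73 genes, among 41174 probes of 27962 genes on the array. The 73 genes were 11 Hsp70 genes, 3 Hsp90 genes, 7 small heat shock protein genes, 2 mitochondrial and 7 cytosolic chaperonin genes, 4, 12 and 21 DnaJ genes of classes A, B and C, 5 Bag genes and Hsf1. No probe carried the names Hspa1b or Hsph1.

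Chaperones bind unfolded proteins and let them reach or regain their fold. Hsp70 proteins hold short exposed stretches in cycles of ATP hydrolysis that DnaJ proteins start and Bag proteins, as nucleotide exchange factors, end. Hsp90 proteins act later on kinases, receptors and other clients, and chaperonins fold a newly made protein inside a closed ring. Hsf1 is the transcription factor that switches on the stress-inducible members when unfolded proteins accumulate, whereas the constitutive members are abundant in growing cells. In the mouse, Hsp70 genes are among the first that the embryo itself transcribes after fertilisation.

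The series compared nuclear transfer blastocysts of several donor cells with IVF blastocysts of the same sex and genotype, in the strain (C57BL/6NxDBA/2)F1. The 33 arrays, each of 1 blastocyst, formed 8 groups: clones of male Purkinje cells (n = 4), male CA1 pyramidal cells (n = 4) and neonatal Sertoli cells (n = 4), male IVF blastocysts (n = 7), 4 clones from Purkinje neurons and 4 from CA1 neurons of females, 3 clones from cumulus cells, and 3 female IVF blastocysts. All clones received trichostatin A, a histone deacetylase inhibitor, at 50 nM for 1 h during activation, 5 h together with cytochalasin B and 2 h afterwards, and all embryos were cultured for 96 h. No IVF embryo received it, so an effect of nuclear transfer and one of trichostatin A cannot be told apart. The labels do not give the number of donor animals or transfer sessions, so that p-values speak only of the spread among the blastocysts measured.

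A level is written here as the log2 of a probe's signal over the 75th percentile of its array, with signals under a floor set to -3.43, and a gene stands by its brightest probe. Called means an adjusted p under 0.05 in limma over the 15930 genes that passed the filter on dim probes. Of the 73 members, 67 passed, while Dnajb13, Dnajb7, Dnajb8, Hspa1l, Hspb3 and Hspb6 did not. The 75th percentile lay between 229.7 and 838 on the 8 Purkinje arrays and between 904.3 and 1465.6 on the other 25. Between 45.1% and 46% of spots were well above background in Sertoli clones, against 48.9% to 62.5% elsewhere. Purkinje, CA1 and Sertoli clones were scanned on another scanner than the cumulus clones and IVF blastocysts, and each clone group had a slide of its own. Scanner or slide and group therefore cannot be told apart in most comparisons, except that cumulus clones shared scanner and software with the IVF blastocysts. Per the file headers, Purkinje clones of both sexes shared 1 scan date and CA1 clones of both sexes another. Sertoli and cumulus clones each had a scan date of their own. Donor type and scan date therefore cannot be told apart in either sex. Trophectoderm markers were present in all groups (7 of 8 listed genes tested, none at the floor throughout a group), with summed levels over the 75th percentile of 605 to 1381 in clones and 737 to 1290 in IVF blastocysts. Primitive endoderm markers (8 of 8 tested) summed to 55.01 to 157.9 in clones and 72.6 to 147.3 in IVF blastocysts, with 0 to 2 genes at the floor throughout a clone group. Against IVF blastocysts of the same sex, the 8 primitive endoderm markers had median changes of -1.005 (Purkinje), -1.52 (CA1) and -1.55 (Sertoli) in male clones, with 4, 5 and 4 called lower, and of -1.46, -1.49 and -1.35 for Purkinje, CA1 and cumulus donors in females, with 3, 3 and 1 called lower. Of these markers 1 was called higher in male Purkinje clones and 1 in Sertoli clones. The trophectoderm markers had medians from -0.87 (Sertoli) to 0.44 (female Purkinje), with 0 to 3 of 7 called lower, and 1 was called higher in female Purkinje clones. The part of these markers in the results was not tested. In these bulk samples, fewer cells of a type and less RNA per cell cannot be told apart.

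In male Purkinje clones, 24 members were called higher and 3 lower than in male IVF blastocysts, and in female Purkinje clones 18 were higher and 4 lower than in female IVF blastocysts. Over all tested genes 18.2% were higher and 10.3% lower in the male comparison, and 13% were higher and 6.62% lower in the female one. CA1 clones had 10 members higher and 11 lower in males (all genes 17.6% and 13.3%), and 5 higher and 4 lower in females (8.36% and 4.88%). Sertoli clones had 11 higher and 7 lower (14.9% and 10.7%), and cumulus clones 2 higher and 2 lower (1.96% and 3.33%). As percentages of the 67 members, the calls in either direction came to 40.3% for Purkinje (all genes 28.4%), 31.3% for CA1 (30.8%) and 26.9% for Sertoli donors (25.7%) among males. Among females they came to 32.8% for Purkinje (all genes 19.6%), 13.4% for CA1 (13.2%) and 5.97% for cumulus donors (5.29%). The shares in CA1, Sertoli and cumulus clones thus lay near those of all genes. In Purkinje clones, genes of high level were called higher more often. Among the 485 genes with a mean level of 6 or more, 52.4% were higher in males (median change 0.51) and 45.8% in females (0.58). Of the 14 members in that range, 8 and 5 were higher, with median changes of 0.51 and 0.25. The part of level in the Purkinje counts was not tested. The 3 male comparisons share 7 IVF arrays and the 3 female ones share 3.

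The number of members called higher in Purkinje clones depended on the scaling of the arrays, as did the share of all genes called higher. After quantile normalization, 10 members were higher and 12 lower in male Purkinje clones (all genes 11.8% and 13.4%), and 6 higher and 9 lower in female ones (7.42% and 8.71%). After scaling to the array median, the split was 8 higher and 9 lower in male Purkinje clones (all genes 6.5% and 16%) and 4 higher and 14 lower in female ones (2.7% and 17.5%), while the median of all genes was itself -0.12 in males and -0.31 in females. Without the 5 Purkinje arrays whose 75th percentile lay under 500 (2 male, 3 female), 10 members were called higher and 0 lower in males (all genes 7.06% and 3.55%), and none was called in females with 1 array left (1.34% and 0.653%).

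**Figure D1:**
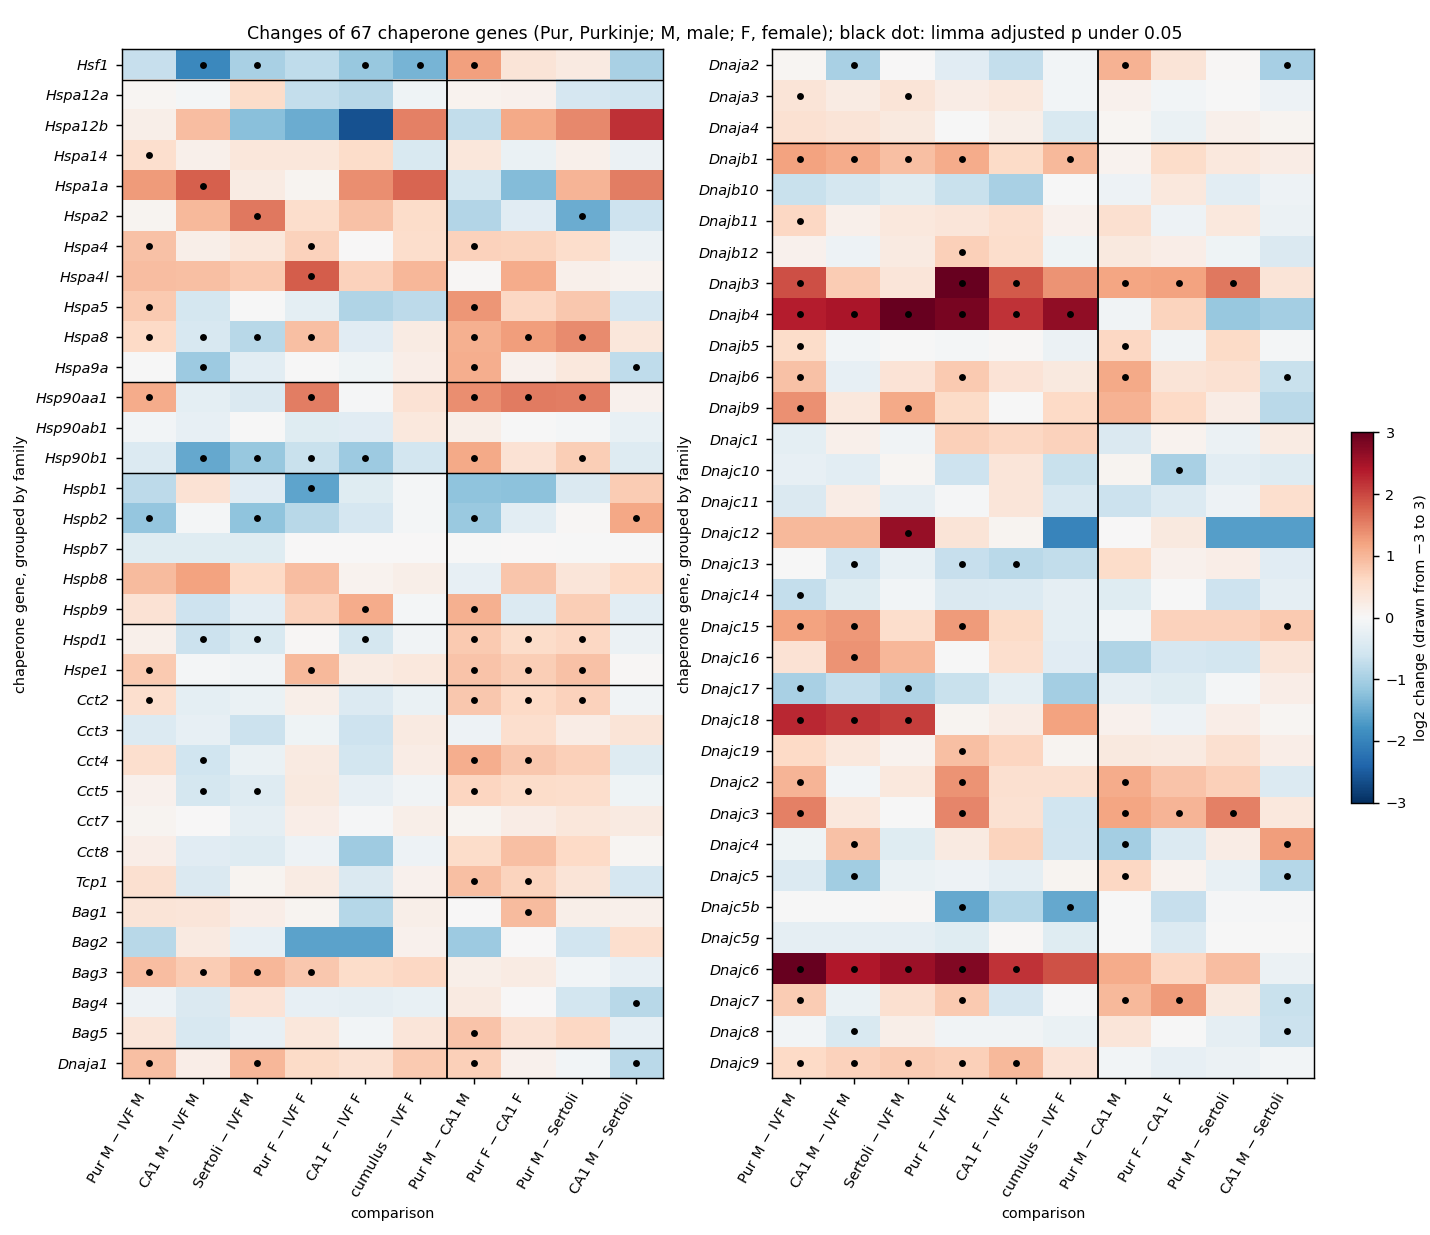
Log2 change of 67 chaperone genes (rows, grouped by family) in 10 comparisons (columns; Pur, Purkinje; M, male; F, female), with colour from blue (-3) through white (0) to red (3) and a black dot where limma called the gene. Dnajb4 is red with a dot in all 6 comparisons of clones with IVF blastocysts, and Hsp90aa1, Hspa8, Hspd1 and Hspe1 carry dots in both columns of Purkinje against CA1 clones.

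Hsf1, the heat shock factor, was lower in clones of most donors. Its levels in male clones were 2.58, 3.20, 3.57 and 3.87 (Purkinje), 2.06, 1.46, 2.32 and 2.42 (CA1) and 2.99, 2.66, 2.91 and 3.59 (Sertoli), against 2.89, 3.98 and 5.09 as the lowest, median and highest of 6 male IVF blastocysts. Female clones had 2.59, 3.13, 3.08 and 3.03 (Purkinje), 2.90, 2.42, 2.21 and 2.77 (CA1) and 2.08, 2.17 and 2.75 (cumulus), against 4.06, 3.92 and 3.18 in IVF blastocysts. CA1 clones of both sexes, female Purkinje clones and cumulus clones did not overlap with their IVF group, whereas male Purkinje and Sertoli clones did. Hsf1 fell by 1.94 in male CA1 clones (SE 0.32, adjusted p = 3.98e-05, limma), by 0.96 in Sertoli clones (adjusted p = 0.026), by 1.14 when the donors were female CA1 neurons (adjusted p = 0.0422) and by 1.39 when they were cumulus cells (adjusted p = 0.0417). With 1 array left out at a time, the call was lost in 5 of 11 fits for Sertoli clones (-1.19 to -0.75), in 6 of 7 for female CA1 clones (-1.41 to -0.97) and in 4 of 6 for cumulus clones (-1.65 to -1.22), and in none for male CA1 clones. The changes of -0.70 and -0.76 in male and female Purkinje clones were not called, though the male one was after quantile normalization (-0.99) and both were after median scaling (-1.04 and -1.37). A pair of dimmer Hsf1 probes was lower in each of the 6 comparisons, but by only 0.07 and 0.06 in male CA1 clones. With the mean of the 3 probes the change in male CA1 clones was -0.42 and not called.

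Hspa1a encodes the stress-inducible Hsp70 and is a classical Hsf1 target. It lay at the floor on most arrays: 13 of 23 clones were above it, against 1 of 10 IVF blastocysts. Among male clones the levels were -0.45, -3.43, -3.43 and -1.28 (Purkinje), -3.43, 0.09, -1.84 and -1.30 (CA1) and -3.43, -3.43, -3.43 and -2.35 (Sertoli), against -3.43, -3.43 and -3.34 as the lowest, median and highest in IVF blastocysts. Females gave -3.43, -3.43, -3.43 and -3.12 in Purkinje clones, -3.43, -2.64, -1.30 and -0.81 in CA1 clones and -0.41, -2.04 and -2.64 in cumulus clones, with all 3 IVF blastocysts at -3.43. Every cumulus clone was thus above the IVF group, and within the other clone groups some blastocysts were at the floor and others not. The difference was called in male CA1 clones alone (1.80, SE 0.55, adjusted p = 0.0144, limma), and no longer without CA1 replicate 2 (1.23). Since 6 of the 7 male IVF blastocysts were at the floor, the size of this difference depends on the floor. Over all alternatives it ran from 1.23, the fit without CA1 replicate 2, to 6.77. In cumulus clones Hspa1a was at least 3.33-fold higher than the floor value of the IVF group, with an adjusted p of 0.16.

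Dnajb1, the DnaJ partner of inducible Hsp70, was called higher in 5 of the 6 clone groups. Levels were 5.71, 5.78, 6.27 and 6.29 in male Purkinje clones, 5.75, 6.12, 5.81 and 5.98 in male CA1 clones and 5.55, 6.05, 5.40 and 5.77 in Sertoli clones, against 4.34, 4.70 and 5.43 as the lowest, median and highest in male IVF blastocysts. They were 5.81, 6.20, 5.97 and 5.96 in female Purkinje clones, 5.87, 5.60, 4.61 and 5.66 in female CA1 clones and 6.00, 6.13 and 5.36 in cumulus clones, against 4.77, 5.01 and 4.82 in female IVF blastocysts. Only Sertoli and female CA1 clones overlapped with IVF blastocysts, female CA1 clones through 1 blastocyst at 4.61. The increases were 1.21 with male Purkinje donors (2.32-fold, SE 0.22, adjusted p = 0.000178, limma), 1.12 with male CA1 donors (adjusted p = 0.000287), 0.89 in Sertoli clones (adjusted p = 0.00349), 1.12 in female Purkinje clones (adjusted p = 0.00416) and 0.96 in cumulus clones (adjusted p = 0.0449). Female CA1 clones differed by 0.57 (adjusted p = 0.166). The call in female Purkinje clones was lost after quantile normalization (0.60) and after median scaling (0.51), and that in cumulus clones after median scaling (1.05) and in 5 of the 6 fits that left out 1 array (0.81 to 1.2). A dimmer Dnajb1 probe gave -0.18, 0.59, 0.01, 0.35, 0.35 and 0.08 for the donors Purkinje, CA1 and Sertoli in males and Purkinje, CA1 and cumulus in females.

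Bag3 encodes a co-chaperone that couples Hsp70 to selective autophagy, and is another stress-inducible gene. Its levels were 5.57, 5.08, 5.78 and 5.51 in male Purkinje clones, 5.42, 5.64, 5.20 and 5.00 in male CA1 clones and 5.02, 5.47, 5.68 and 6.08 in Sertoli clones, against 4.29, 4.51 and 4.92 as the lowest, median and highest in male IVF blastocysts. Female levels were 4.87, 5.92, 5.76 and 5.62 in Purkinje clones, 5.32, 5.31, 5.5 and 5.01 in CA1 clones and 5.25, 5.43 and 5.38 in cumulus clones, against 4.81, 4.57 and 4.83 in IVF blastocysts. Each of the 23 clones was above every IVF blastocyst of its sex. Bag3 rose by 0.92 (Purkinje), 0.75 (CA1) and 1.00 (Sertoli) among male clones (adjusted p = 0.000787, 0.00376 and 0.000386, limma) and by 0.81 in female Purkinje clones (adjusted p = 0.0158), the last of which was lost without Purkinje replicate 2 (0.68) or female IVF replicate 2 (0.72). The differences of 0.55 (female CA1) and 0.62 (cumulus) were not called (adjusted p = 0.121 and 0.146). Median scaling ended the calls in all but Sertoli clones (0.57 in male Purkinje, 0.54 in male CA1 and 0.20 in female Purkinje clones), and quantile normalization ended that in female Purkinje clones (0.30). A dimmer Bag3 probe did not follow, with changes between -0.36 and 0.61.

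Hspb1 and Hspb8, small heat shock proteins that hold unfolded proteins without ATP, were not higher in any called comparison. Hspb1 fell by 1.58 in female Purkinje clones (0.75, 1.06, 0.91 and 0.40, against 3.35, 1.35 and 2.36 in IVF blastocysts, adjusted p = 0.043, limma), a call that was lost in 6 of 7 fits that left out 1 array (-2.08 to -1.08). Hspb2, a muscle small heat shock protein, fell by 1.16 in male Purkinje clones and by 1.2 in Sertoli clones (adjusted p = 0.00622 and 0.00528).

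**Figure D2:**
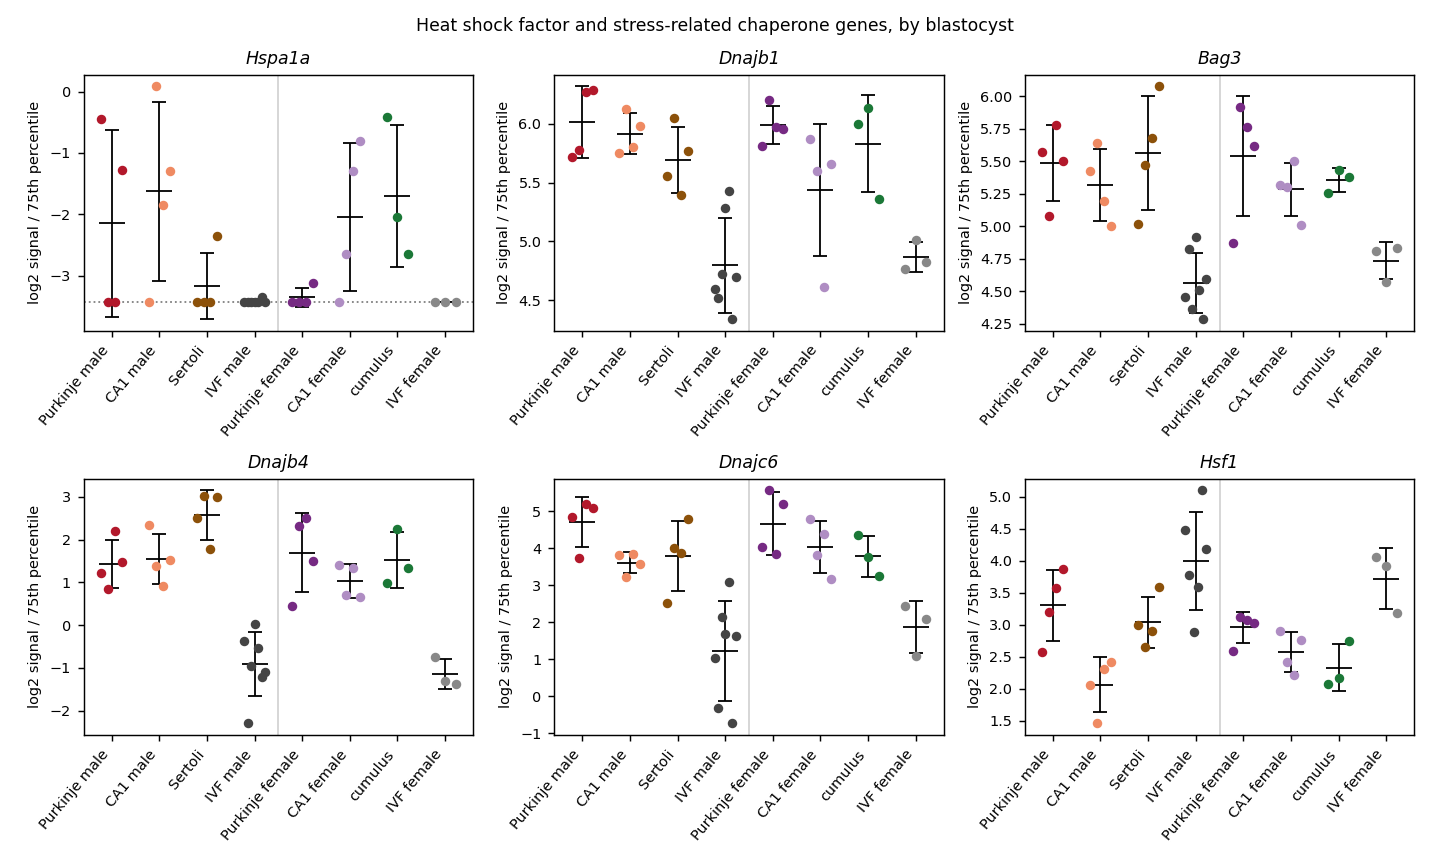
Levels of Hsf1 and 5 stress-related chaperone genes (y axis, log2 of the signal over the array's 75th percentile) in each blastocyst (points) of the 8 groups (x axis), with the mean and SD as bars and the floor dotted in the Hspa1a panel. Dnajb4 lies at or above 0.46 in all clones and at or below 0.03 in all IVF blastocysts, whereas Hspa1a sits at the floor on most arrays.

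Promoter sequences (250 bases before to 50 after the start site, RefSeq, GRCm38.p6) were matched for 59 of the 73 members and searched for a heat shock element of 3 units (GAA, 2 bases of any kind, TTC, 2 of any kind, GAA) on both strands. The element was found in 3 of these members, Dnajb6, Hspd1 and Hspe1, and in 0.603% of 32851 promoters. The windows are printed because they are the members' only matches to the sequence that Hsf1 binds, with capitals marking the match.
Hspe1 (chr1:55088034-55088101, plus strand): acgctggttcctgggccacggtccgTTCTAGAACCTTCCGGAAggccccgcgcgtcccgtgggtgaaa
Hspd1 (the same bases on the minus strand): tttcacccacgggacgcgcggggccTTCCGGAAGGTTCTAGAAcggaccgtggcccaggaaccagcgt
Dnajb6 (chr5:29735827-29735889, plus strand): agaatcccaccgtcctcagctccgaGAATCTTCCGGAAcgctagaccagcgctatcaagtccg
Hspd1 and Hspe1 lie head to head and share one stretch in which 2 matches overlap, 89 to 72 bases upstream of the Hspe1 start and 144 to 127 upstream of the Hspd1 start. The Dnajb6 match lay 46 to 34 bases upstream. A match is a description of the letters, and no match in Hspa1a, Dnajb1 or other members says nothing about Hsf1 at other elements.

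The largest called increases over IVF blastocysts were those of Dnajc6 in male Purkinje clones (3.5) and Dnajb4 in Sertoli clones (3.49), followed by Dnajb3 in female Purkinje clones (3.03). Dnajb4 is a cytosolic class B partner of Hsp70. It stood at 1.22, 0.85, 2.19 and 1.48 in male Purkinje clones, 2.33, 1.39, 0.92 and 1.51 in male CA1 clones and 2.50, 3.01, 1.78 and 2.99 in Sertoli clones, against -2.30, -0.96 and 0.03 as the lowest, median and highest in male IVF blastocysts. For females the levels were 0.46, 2.31, 2.51 and 1.51 (Purkinje), 1.41, 0.71, 1.35 and 0.67 (CA1) and 0.97, 2.25 and 1.33 (cumulus), against -0.75, -1.31 and -1.37 in IVF blastocysts. No clone overlapped with the IVF blastocysts of its sex. The increases were 2.35 (5.11-fold, adjusted p = 8.39e-05, limma), 2.46 (5.5-fold, adjusted p = 2.65e-05) and 3.49 (adjusted p = 4.32e-07) in male Purkinje, CA1 and Sertoli clones, each with an SE of 0.39. They were 2.84 (adjusted p = 0.000201), 2.18 (adjusted p = 0.0033) and 2.66 (adjusted p = 0.00376) in female Purkinje, CA1 and cumulus clones. All 6 calls held after quantile normalization (2.13 to 3.47) and after median scaling (2.01 to 3.36). A second, dimmer probe was also higher in each comparison, by 0.25 to 1.13. It was called in male Purkinje clones (adjusted p = 0.04765, limma), but not in the other clone groups (adjusted p = 0.05307 to 0.8365).

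Dnajc6 encodes auxilin, which brings Hsc70 to clathrin-coated vesicles and is best known from neurons. Its levels were 4.83, 3.72, 5.20 and 5.09 in male Purkinje clones, 3.81, 3.21, 3.84 and 3.57 in male CA1 clones and 2.51, 4.01, 3.86 and 4.78 in Sertoli clones, against -0.74, 1.61 and 3.08 as the lowest, median and highest in male IVF blastocysts. Female levels were 4.02, 5.56, 3.85 and 5.20 in Purkinje clones, 4.77, 3.81, 4.39 and 3.16 in CA1 clones and 4.35, 3.77 and 3.23 in cumulus clones, against 2.44, 1.09 and 2.08 in IVF blastocysts. Only the Sertoli group reached into the range of its IVF group. Dnajc6 rose by 3.5 in male Purkinje clones (11.3-fold, SE 0.54, adjusted p = 3.56e-05, limma), by 2.39 in male CA1 clones (adjusted p = 0.00131) and by 2.58 in Sertoli clones (adjusted p = 0.000939). Among females it rose by 2.78 in Purkinje clones (adjusted p = 0.00416) and by 2.16 in CA1 clones (adjusted p = 0.0295), while the difference of 1.91 in cumulus clones was not called (adjusted p = 0.111). The call in female CA1 clones ended after quantile normalization (1.90), after median scaling (2.08) and in 4 of 7 fits that left out 1 array (1.77 to 2.45). No difference between donors was called in males: Purkinje minus Sertoli gave 0.92 (adjusted p = 0.461) and CA1 minus Sertoli gave -0.18 (adjusted p = 0.942). Neuron markers (5 of 8 listed genes tested) summed to 0.87 to 5.4 times the 75th percentile in clones and to 5.12 to 13.2 in IVF blastocysts.

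Other DnaJ genes differed between donors. Class B genes were higher more often than lower in every comparison with IVF blastocysts: 7 of 9 with male and 5 with female Purkinje donors, 3 with Sertoli donors and 2 each with male CA1, female CA1 and cumulus donors, with none lower. In the same order, 18.2%, 13%, 14.9%, 17.6%, 8.36% and 1.96% of all genes were higher. The counts were 5, 2, 3, 2, 2 and 3 after quantile normalization (all genes 11.8%, 7.42%, 11.1%, 15.4%, 4.97% and 2.54%) and 3, 2, 2, 2, 2 and 1 after median scaling (6.5%, 2.7%, 8.49%, 10.1%, 4.99% and 1.59%), again with none lower. Among the 21 class C genes 7 were higher and 2 lower in Purkinje clones of each sex (all genes 18.2% and 10.3% in males, 13% and 6.62% in females). After median scaling the split was 4 and 4 in males (all genes 6.5% and 16%) and 1 and 7 in females (2.7% and 17.5%).

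Dnajb3, a DnaJ gene known from spermatids, was at 2.12, 1.40, 1.92 and 2.19 in male Purkinje clones, against -0.38, -0.15 and 0.43 as the lowest, median and highest in male IVF blastocysts. In female Purkinje clones it was at 1.37, 2.32, 2.15 and 2.30, and in female CA1 clones at 1.23, 0.48, 0.64 and 0.98, against -2.48, -0.62 and 0.10 in IVF blastocysts. These groups did not overlap with IVF blastocysts. The increases were 1.93 (adjusted p = 9.1e-05, limma), 3.03 (adjusted p = 1.15e-05) and 1.83 (adjusted p = 0.00282), and all held under both other scalings. Dnajb3 was also higher in Purkinje than in CA1 clones, by 1.18 in males and 1.2 in females (adjusted p = 0.0253 and 0.0337), although not after median scaling (1.04 and 0.67). With 1 array left out, the call was lost in 3 of 8 fits in males (1.02 to 1.35) and in 6 of 8 in females (1.08 to 1.42).

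Dnajc15, a DnaJ protein of the mitochondrial inner membrane, was at 4.82, 3.81, 4.51 and 4.6 in male Purkinje clones and 4.57, 4.44, 4.42 and 4.66 in male CA1 clones, against 2.87, 3.18 and 3.75 as the lowest, median and highest in male IVF blastocysts. In female Purkinje clones it was at 4.33, 4.64, 4.11 and 4.53, against 3.17, 3.39 and 2.82 in female IVF blastocysts. None of these groups overlapped with its IVF group. It rose by 1.21, 1.30 and 1.27 (adjusted p = 0.00012, 2.98e-05 and 0.00102, limma), and in male CA1 clones it was higher than in Sertoli clones (0.78, adjusted p = 0.032). The changes in Sertoli, female CA1 and cumulus clones were 0.53, 0.57 and -0.29 and were not called. Median scaling ended the calls in female Purkinje clones (0.67) and against Sertoli clones (0.70), and the call against Sertoli clones was also lost in 6 of 8 fits that left out 1 array (0.70 to 0.86).

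Dnajc9, which carries histones together with Hsp70, was called higher in 5 groups by 0.60 to 0.96, but a second probe went the other way in 4 of those 5 (-0.38, -0.57, -1.19 and -1.01 in male Purkinje, male CA1, Sertoli and female CA1 clones). Its call was lost in male Purkinje clones without replicate 3 (0.50), and in female Purkinje clones without female IVF replicate 1 (0.63) or 2 (0.67). Dnajc18 rose by 2.26, 2.14 and 2.07 in the 3 male clone groups (adjusted p = 0.00725, 0.00936 and 0.0144, limma). Its male IVF levels ran from -1.66 to 2.36 in 6 blastocysts, so the groups overlapped, and the Sertoli call was lost without replicate 2 (1.83). The female changes of 0.08, 0.23 and 1.21 were not called. Dnajc12 rose in Sertoli clones (0.46, -0.01, 0.70 and 0.39, against -3.43, -2.13 and -0.69 as the lowest, median and highest in IVF blastocysts) by 2.62 (adjusted p = 0.000435). Hspa2, the Hsp70 of meiotic germ cells, also rose in Sertoli clones (-0.17, 0.94, -0.15 and 0.99, against -2.35, -1.13 and -0.24) by 1.58 (adjusted p = 0.00364). With the mean of its probes, the Hspa2 change was 0.93 and not called.

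Chaperones of the endoplasmic reticulum (ER) did not move as a group. Hsp90b1 (Grp94, the Hsp90 of the ER) was lower, at 5.09, 5.22, 5.25 and 5.11 in male CA1 clones and 5.92, 5.08, 5.61 and 5.65 in Sertoli clones, against 6.40, 6.49 and 7.14 as the lowest, median and highest in male IVF blastocysts. Female Purkinje clones had 6.02, 6.54, 6.71 and 6.34 and female CA1 clones 6.14, 6.12, 5.81 and 5.86, against 7.29, 6.90 and 7.02 in IVF blastocysts. None of these 4 groups overlapped with its IVF group. Hsp90b1 fell by 1.53 in male CA1 clones (SE 0.18, adjusted p = 2.21e-07, limma), by 1.13 in Sertoli clones (adjusted p = 3.81e-05), by 0.67 in female Purkinje clones (adjusted p = 0.0295) and by 1.09 in female CA1 clones (adjusted p = 0.0013). The call in female Purkinje clones was lost in 4 of 7 fits that left out 1 array (-0.77 to -0.54). Male Purkinje clones (6.00, 6.22, 6.68 and 6.28) and cumulus clones (6.90, 6.34 and 6.34) differed by -0.40 and -0.54, which were not called. After quantile normalization the male Purkinje change was -0.83 and called. A dimmer Hsp90b1 probe gave 0.13, 0.19, -0.47, 0.45, -0.02 and -1.03 for the donors Purkinje, CA1 and Sertoli in males and Purkinje, CA1 and cumulus in females, so the probes disagreed in sign in male CA1 and in female Purkinje clones, and in size in female CA1 clones. The primitive endoderm markers were lower in the same comparisons, by medians of 1.52 (male CA1), 1.55 (Sertoli), 1.46 (female Purkinje) and 1.49 (female CA1), though 1 marker was called higher in Sertoli clones. Male Purkinje and cumulus clones, where Hsp90b1 was not called, also had lower medians of these markers (-1.005 and -1.35). The part of the markers in the Hsp90b1 result was not tested.

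Dnajc3 (p58IPK), an ER co-chaperone of BiP, was higher in Purkinje clones. Its levels were 3.22, 2.93, 3.15 and 3.22 in male Purkinje clones and 1.91, 2.39, 1.15 and 2.31 in male CA1 clones, against 0.57, 2.02 and 2.15 as the lowest, median and highest in male IVF blastocysts. Female Purkinje clones had 3.07, 3.5, 3.51 and 3.68 and female CA1 clones 1.96, 2.86, 2.81 and 2.07, against 2.73, 1.70 and 1.47 in IVF blastocysts. Purkinje clones of each sex overlapped with neither group. The increases over IVF blastocysts were 1.5 in males and 1.47 in females (adjusted p = 0.000477 and 0.00538, limma), and those over CA1 clones 1.19 and 1.02 (adjusted p = 0.0139 and 0.0488). Median scaling ended the call over female IVF blastocysts (0.87), over male CA1 clones (1.06) and over female CA1 clones (0.48), and quantile normalization ended the last of these as well (0.98). With 1 array left out, the difference from CA1 clones was lost in males without CA1 replicate 3 (0.93), and in females in 5 of 8 fits (0.86 to 1.16). The other 3 Dnajc3 probes were higher in male Purkinje than in CA1 clones too, by 0.80, 0.70 and 1.19. From lowest to highest, their adjusted p-values there were 0.0121, 0.148 and 0.274 (limma), and 0.0282, 0.0339 and 0.244 in females. For Purkinje clones minus IVF blastocysts they were 0.0108, 0.19 and 0.44 in males and 0.0442, 0.1175 and 0.863 in females.

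Hspa5 (BiP, the Hsp70 of the ER) was at 5.94, 6.49, 6.91 and 6.70 in male Purkinje clones and 4.76, 5.45, 5.14 and 5.41 in male CA1 clones, which did not overlap (1.32, adjusted p = 0.00368, limma). Over male IVF blastocysts the increase in Purkinje clones was 0.79 (adjusted p = 0.0322), and it was not called after quantile normalization (0.30) or median scaling (0.51), or in 7 of 11 fits that left out 1 array (0.66 to 1.00). In females Purkinje clones differed by -0.29 from IVF blastocysts and by 0.62 from CA1 clones, neither of which was called (adjusted p = 0.645 and 0.204). Dnajb9, which promotes ER-associated degradation, rose by 1.36 in male Purkinje clones and by 1.14 in Sertoli clones (adjusted p = 0.00771 and 0.0257), and neither was called after median scaling (1.02 and 1.01). The first was lost without Purkinje replicate 4 (0.88), the second in 3 of 11 fits that left out 1 array (1.00 to 1.27). Of 15 other ER folding genes tested, 5 were higher and 2 lower in male Purkinje clones (all genes 18.2% and 10.3%), 3 and 2 in male CA1 clones (17.6% and 13.3%), 0 and 4 in Sertoli clones (14.9% and 10.7%), 4 and 2 in female Purkinje clones (13% and 6.62%), 1 and 0 in female CA1 clones (8.36% and 4.88%), and none was called in cumulus clones (1.96% and 3.33%). Hyou1, a large Hsp70-like protein of the ER, rose by 1.74 and 1.94 in male and female Purkinje clones, while Serpinh1, the collagen chaperone Hsp47, fell by 2.10 in male and 3.52 in female Purkinje clones, by 1.57 in male CA1 clones and by 1.94 in Sertoli clones. Beside Serpinh1 too, the primitive endoderm markers had lower medians in these 4 comparisons, though 1 marker was called higher in male Purkinje and 1 in Sertoli clones. The part of these markers was not tested.

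The ER stress element (CCAAT, 9 bases of any kind, CCACG) was found on either strand in 0.119% of the 32851 promoters and in 3 of the 59 members, Hspa5, Hsp90b1 and Dnajc3. Their windows are shown because these 3 genes carry the ER element in common while their values differed, with capitals marking the match. The second Hsp90b1 window holds the element on the opposite strand of the gene.
Hspa5 (chr2:34772000-34772068, plus strand, 65 to 47 bases upstream): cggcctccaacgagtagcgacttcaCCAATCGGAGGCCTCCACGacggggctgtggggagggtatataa
Hsp90b1 (chr10:86705613-86705681, minus strand, 212 to 194 bases upstream): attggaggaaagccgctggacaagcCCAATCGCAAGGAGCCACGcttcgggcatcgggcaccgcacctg
Hsp90b1 (chr10:86705508-86705576, minus strand, 107 to 89 bases upstream): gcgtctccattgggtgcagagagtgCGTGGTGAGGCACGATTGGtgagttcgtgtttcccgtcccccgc
Dnajc3 (chr14:118937802-118937870, plus strand, 105 to 87 bases upstream): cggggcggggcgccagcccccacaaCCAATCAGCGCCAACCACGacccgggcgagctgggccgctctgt
In male CA1 clones minus male IVF blastocysts, the changes of these 3 genes were -0.53 (Hspa5), -1.53 (Hsp90b1, called) and 0.31 (Dnajc3).

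Among donor types, Purkinje clones were first compared with CA1 clones of the same sex. In males 24 members were called higher and 2 lower (all genes 10.8% and 7.49%), and in females 12 higher and 1 lower (6.15% and 4.77%). The median change of the 67 members was 0.27 in males and 0.26 in females, against 0.01 and 0 over all genes. Genes of high level shifted in the same direction: among the 485 genes with a mean level of 6 or more, the median was 0.53 in males with 46.6% called higher, and 0.45 in females with 34%. The 14 members in that range had medians of 0.82 and 0.55, with 11 and 6 called higher. Of the abundant members, Hsp90ab1, Cct7 and Hspa14 were called in neither sex. After quantile normalization 14 of the 67 members were called higher and 3 lower in males (all genes 7.83% and 9%), and 3 and 1 in females (4.41% and 4.33%). The trophectoderm markers had a median change of 0.64 with 2 of 7 called higher in males and of 0.68 with 1 called higher in females, and their part was not tested.

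Hsp90aa1, the stress-responsive cytosolic Hsp90, was at 9.08, 9.04, 9.98 and 10.29 in male Purkinje clones, against 8.14, 8.45, 8.08 and 8.15 in male CA1 clones and 8.09, 8.03, 7.98 and 8.16 in Sertoli clones. Female Purkinje clones had 8.75, 10.02, 9.77 and 9.73, against 8.36, 7.90, 7.87 and 7.89 in female CA1 clones. All Purkinje clones were above all CA1 and Sertoli clones. The differences were 1.39 (male Purkinje minus CA1, 2.63-fold, SE 0.33, adjusted p = 0.00422, limma), 1.56 (female, adjusted p = 0.00288) and 1.53 (Purkinje minus Sertoli, adjusted p = 0.00536). Purkinje clones also exceeded IVF blastocysts, by 1.11 in males and 1.54 in females (adjusted p = 0.00654 and 0.00328). After quantile normalization all 5 differences shrank to 0.39 to 0.67, and none was called. They shrank to 0.57 to 1.00, again with none called, without the Purkinje arrays of low signal.

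Hspa8, the constitutive Hsp70 (Hsc70), was at 8.67, 8.83, 9.22 and 9.17 in male Purkinje clones, against 7.83, 8.21, 7.84 and 7.74 in male CA1 clones and 7.37, 7.53, 7.48 and 7.86 in Sertoli clones. Female Purkinje clones had 8.31, 9.31, 9.19 and 9.17, against 7.90, 7.73, 7.66 and 7.67 in female CA1 clones. All Purkinje clones were above all CA1 and Sertoli clones of their sex, whereas male CA1 and Sertoli clones overlapped with each other. Male IVF blastocysts (8.21, 8.33 and 8.59 as the lowest, median and highest) lay between Purkinje and Sertoli clones. Hspa8 was higher by 1.07 and 1.26 in male and female Purkinje than CA1 clones (adjusted p = 0.000312 and 0.000127, limma) and by 1.41 in Purkinje than Sertoli clones (adjusted p = 6.06e-05). Against IVF blastocysts it rose by 0.59 and 0.91 in male and female Purkinje clones (adjusted p = 0.0093 and 0.00256), and fell by 0.48 in male CA1 and by 0.82 in Sertoli clones (adjusted p = 0.0285 and 0.00063). The male Purkinje call was lost without replicate 3 (0.50), and that in male CA1 clones without replicate 1, 3 or 4 (-0.46, -0.46 and -0.43). After quantile normalization the calls that held were the increase over Sertoli clones (0.62) and the decrease in Sertoli clones (-0.59). A second Hspa8 probe was called in male Purkinje minus CA1 clones and male CA1 clones minus IVF blastocysts (adjusted p = 0.0219 and 0.0344, limma). It was not called in female Purkinje minus CA1 clones (0.114) or Purkinje minus Sertoli clones (0.569). Against IVF blastocysts it was not called in male Purkinje, female Purkinje or Sertoli clones (0.518, 0.911 and 0.789). The array's own annotation placed Hspa8 on another chromosome than RefSeq did, so a near-identical copy may contribute to its probes.

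The mitochondrial chaperonin pair was also higher in Purkinje than in CA1 clones. Hspd1 (Hsp60, the ring) was at 7.95, 8.32, 8.14 and 8.25 in male Purkinje clones and 7.24, 7.56, 7.46 and 7.23 in male CA1 clones, and at 7.93, 8.04, 8.16 and 7.97 in female Purkinje clones and 7.70, 7.48, 7.21 and 7.47 in female CA1 clones. Hspe1 (Hsp10, the lid) was at 6.33, 6.75, 7.40 and 7.25 in male Purkinje clones and 5.99, 6.56, 5.98 and 5.81 in male CA1 clones, and at 6.32, 7.23, 6.94 and 7 in female Purkinje clones and 6.31, 6.22, 5.93 and 6.03 in female CA1 clones. Hspd1 did not overlap in either sex, and Hspe1 overlapped in males. The differences were 0.79 and 0.56 for Hspd1 (adjusted p = 0.000111 and 0.005, limma) and 0.85 and 0.75 for Hspe1 (adjusted p = 0.00716 and 0.0236), whose female call was lost in 5 of 8 fits that left out 1 array (0.63 to 0.93). After quantile normalization none of the 4 was called, and Hspd1 in females turned to -0.05. Against IVF blastocysts the pair differed: Hspe1 rose by 0.78 and 0.98 in male and female Purkinje clones, whereas Hspd1 fell by 0.63 in male CA1 clones, by 0.46 in Sertoli clones and by 0.52 in female CA1 clones. Neither Hspe1 call held after quantile normalization (0.25 and 0.38) or median scaling (0.43 and 0.37). The Hspd1 call ended in Sertoli clones after quantile normalization (-0.24) and in female CA1 clones after median scaling (-0.60) and without female IVF replicate 2 (-0.49).

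**Figure D3:**
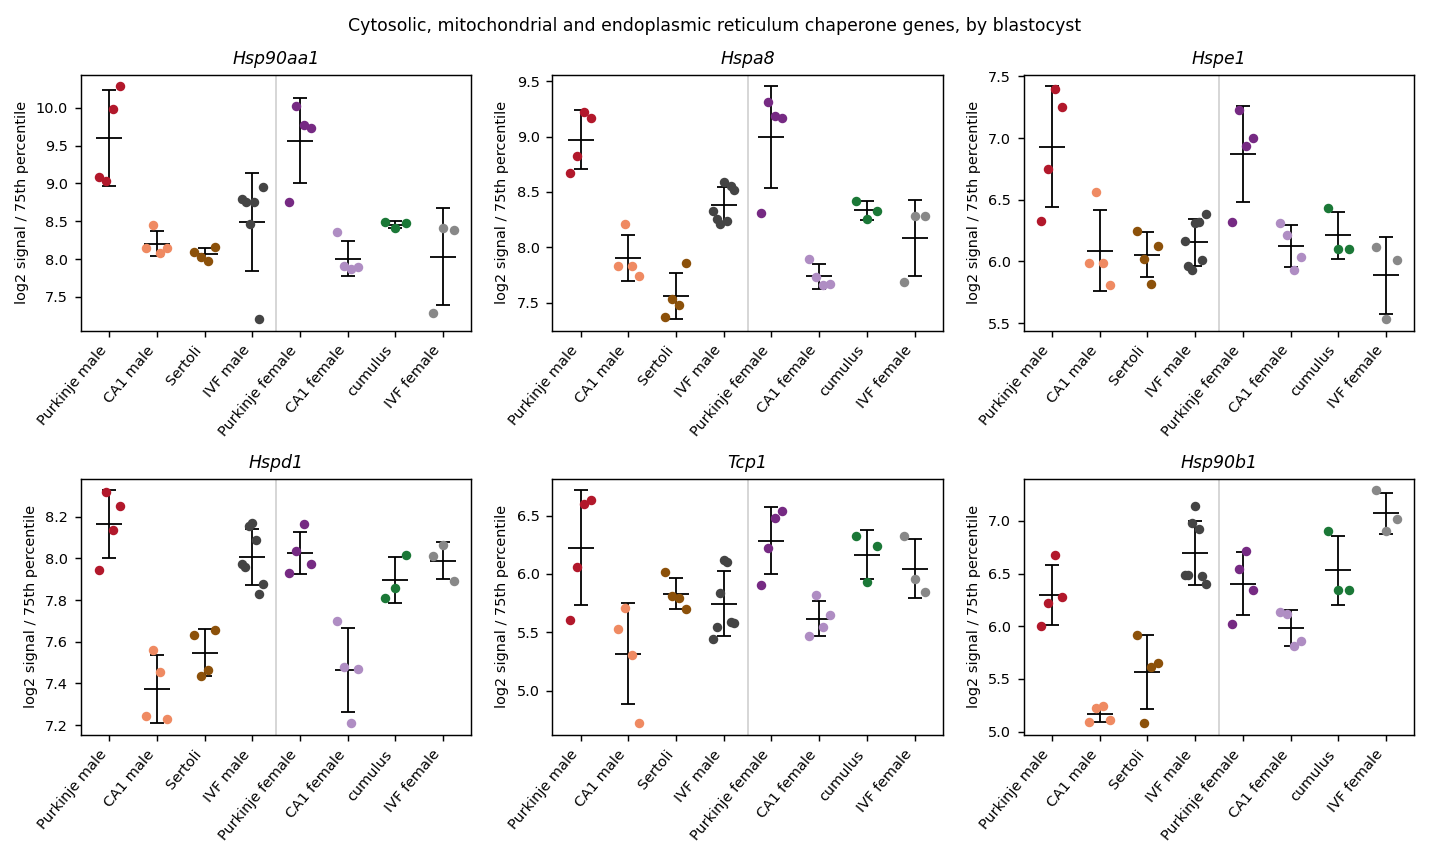
Levels of 6 cytosolic, mitochondrial and ER chaperone genes (y axis, log2 of the signal over the array's 75th percentile) in each blastocyst (points) of the 8 groups (x axis), with mean and SD as bars. All Purkinje clones lie above all CA1 and Sertoli clones for Hsp90aa1, and Hsp90b1 has its lowest mean in male CA1 clones.

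The cytosolic chaperonin, which folds actin and tubulin, was compared in the same way. Of its 7 measured subunits, 4 were higher in Purkinje than in CA1 clones in each sex (Tcp1, Cct2, Cct4 and Cct5) and none was lower (all genes 10.8% higher in males and 6.15% in females). With 1 array left out, the female calls were lost in 7 of 8 fits for Tcp1 (0.58 to 0.80), in 6 of 8 for Cct5 (0.45 to 0.61), in 3 of 8 for Cct4 (0.71 to 0.97) and in none for Cct2. A second Cct2 probe went the other way in males (adjusted p = 0.012, limma) and was not called in females. With the mean of the Cct2 probes, the male difference was -0.015. A second Tcp1 probe was called in neither sex. Cct4 was at 5.48, 5.5, 6.14 and 6.22 in male Purkinje clones and 4.90, 5.11, 4.65 and 4.27 in male CA1 clones, and at 5.29, 5.90, 5.72 and 6.08 in female Purkinje clones and 4.65, 5.01, 5.15 and 4.91 in female CA1 clones. It did not overlap in either sex and was higher by 1.1 and 0.82 (adjusted p = 0.00115 and 0.0163, limma), also after quantile normalization (0.88 and 0.69), but in females not after median scaling (0.28). A second Cct4 probe was not called in males, and was called higher in females (adjusted p = 0.0487, limma). Quantile normalization left 2 subunits called in males and 1 in females (all genes 7.83% and 4.41% higher), and median scaling left 2 and 0 (4.98% and 1.55%). Against male IVF blastocysts, Cct4 and Cct5 fell by 0.59 and 0.52 in male CA1 clones, and the Cct4 call was lost in 2 of 11 fits that left out 1 array (-0.71 to -0.43). Chaperonin partners and prefoldin subunits (14 tested of 16 listed) were called higher 5 times and lower 0 times in male Purkinje against CA1 clones (all genes 10.8% and 7.49%), and 3 and 0 times in females (6.15% and 4.77%). They included the prefoldin subunit Vbp1 (1.27 and 1.13 in males and females) and the tubulin cofactor Tbca (1.09 in males).

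The level of Hsp90aa1 moved with the overall signal of an array. Within male Purkinje clones the arrays with a 75th percentile of 229.7 and 367.7 gave 10.29 and 9.98 for Hsp90aa1, and those with 602.9 and 659.1 gave 9.04 and 9.08. Within female Purkinje clones the array with 838 gave 8.75, and those with 353.8, 430 and 469.6 gave 10.02, 9.73 and 9.77. The part of the array signal in the differences of Purkinje clones was not tested, since no other group had arrays of such signal. For Dnajb4 too, the brighter Purkinje arrays had the lower levels: 0.85 and 1.22 in males on the arrays with 602.9 and 659.1, against 1.48 and 2.19 on the other 2, and 0.46 in females on the array with 838, against 1.51 to 2.51 on the other 3.

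**Figure D4:**
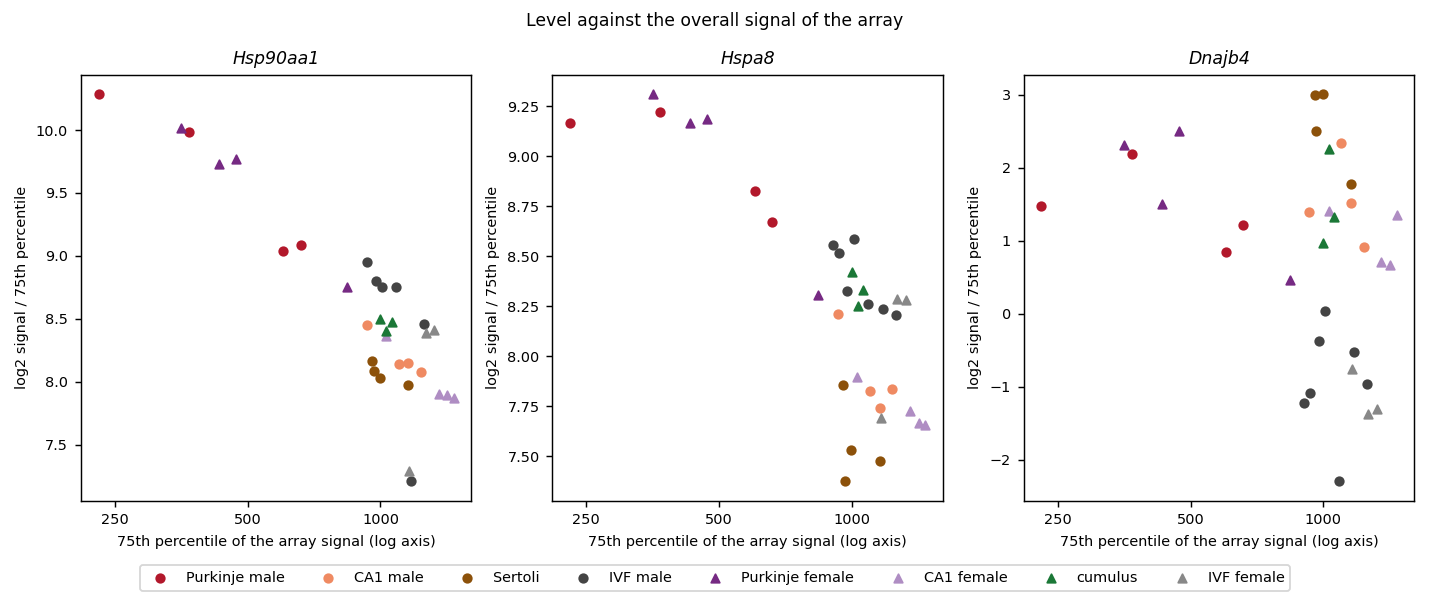
Level of Hsp90aa1, Hspa8 and Dnajb4 (y axes, log2 of the signal over the array's 75th percentile) against that 75th percentile (x axis, log scale) for the 33 arrays, with circles for male groups and triangles for female groups. For Hsp90aa1 the Purkinje arrays of lowest signal have the highest levels (10.29 at 229.7), whereas for Dnajb4 all clones lie above all IVF blastocysts, whose arrays lie at 904.3 or more.

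Sertoli clones were also set against Purkinje and CA1 clones of males. Purkinje clones exceeded Sertoli clones in 8 members and were lower in 1, Hspa2 (all genes 3.34% and 1.42%). Of the 485 genes with a mean level of 6 or more, 23.7% were higher in Purkinje than in Sertoli clones (median change 0.40). Among the 14 members in that range 6 were higher (median change 0.57), and the part of level was not tested. CA1 clones had 3 members higher and 8 lower than Sertoli clones (all genes 5.44% and 6.28%). Hspa9a, the mitochondrial Hsp70 (mortalin), was lowest in male CA1 clones, at 6.18, 6.18, 5.98 and 5.29, against 6.81, 6.66, 6.55 and 6.67 in Sertoli clones. It also lay below all male IVF blastocysts (6.81, 7.03 and 7.09 as the lowest, median and highest). The decreases were 0.77 against Sertoli clones and 1.08 against IVF blastocysts (adjusted p = 0.00879 and 1.42e-05, limma), and both held under quantile and median scaling. The difference from Sertoli clones was lost without CA1 replicate 4 (-0.56). A second Hspa9a probe was called in neither comparison (adjusted p = 0.72 against Sertoli clones and 0.0677 against IVF blastocysts, limma). That probe was called in female CA1 clones minus IVF blastocysts (adjusted p = 0.0157), where the brightest probe was not. Dnajc4 went the other way in male CA1 clones (3.34, 3.29, 3.48 and 3.79, against 2.32, 2.16, 2.29 and 2.12 in Sertoli clones), with a difference of 1.25 (adjusted p = 0.00463). Dnaja1, Dnaja2, Dnajb6, Dnajc5, Dnajc7, Dnajc8 and Bag4 were the remaining members lower in CA1 than in Sertoli clones, by 0.63 to 1.00. With 1 array left out, the call was lost in 5 of 8 fits for Dnaja1 and Bag4, in 6 of 8 for Dnajb6 and Dnajc7, in 4 of 8 for Dnajc8, in 1 of 8 for Dnaja2 and in none for Dnajc5.

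Few members differed by sex. Between male and female IVF blastocysts 1 member was called, Dnajc5b, a testis relative of cysteine string protein (all genes 0.433%). It was at the floor in all 7 males and at -1.52, -3.14 and -1.01 in females, which puts males at least 2.92-fold below females (adjusted p = 0.0139, limma). Within the slide that held both sexes, the difference was -1.55 and not called, and the call over all IVF arrays was lost without female replicate 1 or 3. Female Purkinje and cumulus clones were all at the floor for this gene too, at least 2.92-fold lower than female IVF blastocysts (adjusted p = 0.00226 and 0.014), and the cumulus call was lost in 3 of 6 fits that left out 1 array. The effect of cloning in Purkinje clones differed between the sexes for 0 members (limma, all genes 0.0565%, with 0.0439% higher and 0.0126% lower), with 7 at an unadjusted p under 0.05. For CA1 clones 1 member differed (all genes 1.07%, with 0.584% higher and 0.483% lower): Hspb9, a testis small heat shock protein, averaged -3.29 ± 0.09 in male CA1 clones (SD, n = 4) and -2.66 ± 0.77 in male IVF blastocysts (n = 7), but -2.26 ± 0.22 in female CA1 clones (n = 4) and -3.37 ± 0.11 in female IVF blastocysts (n = 3). All of these levels were near the floor. The difference of effects was -1.74 (SE 0.41, adjusted p = 0.0282), and it was lost in 6 of 18 fits that left out 1 array.

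Partners of the Hsp90 and Hsp70 machines were mixed. Of 18 Hsp90 co-chaperones tested (19 listed), 2 were higher and 5 lower in male Purkinje clones than in IVF blastocysts, 1 and 3 in male CA1 clones, 1 and 2 in Sertoli clones, 2 and 2 in female Purkinje clones, 0 and 0 in female CA1 clones, and 0 and 1 in cumulus clones. Over all genes the shares higher and lower were, in that order, 18.2% and 10.3%, 17.6% and 13.3%, 14.9% and 10.7%, 13% and 6.62%, 8.36% and 4.88%, and 1.96% and 3.33%, which also apply to the mitochondrial genes. Stub1 (CHIP), the ubiquitin ligase of chaperone clients, fell by 1.42 in male and 0.87 in female Purkinje clones and by 0.79 in male CA1 clones. Among 13 mitochondrial proteostasis genes tested (15 listed), 4 were higher and 1 lower in male Purkinje clones, 4 and 0 in male CA1 clones, 3 and 0 in Sertoli clones, 3 and 0 in female Purkinje clones, 1 and 1 in female CA1 clones, and none was called in cumulus clones. None of 5 other heat shock factor genes and regulators tested (8 listed) was called against IVF blastocysts. Hsp90ab1, the constitutive cytosolic Hsp90, was not called in any comparison, with mean levels of 7.14 ± 0.06 for Purkinje, 6.97 ± 0.19 for CA1 and 7.20 ± 0.14 for Sertoli clones among males (SD, n = 4 each), and 7.22 ± 0.10 for male IVF blastocysts (n = 7).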

How the data were processed

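RNA of single blastocysts was amplified, labelled with Cy3 and hybridised to Agilent arrays, 1 blastocyst per array. The deposited scanner files hold the processed signal of each spot as a linear intensity, background-corrected by Agilent Feature Extraction (10.5.1 per the submitters' processing notes). Per the file headers, 20 arrays were read on scanner G2505C with software 10.5.1.1 and 13 on G2505B with 9.5.3.1. The authors' deposited value tables, on a log2 scale, served as an alternative. Files of the first kind carry no gene names, which were taken by probe name from the second.

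Each intensity was divided by the array's 75th percentile, set to at least a floor (-3.43 on the log2 scale) and log2 transformed. Spots marked as outliers were left out. Probes well above background on more than 50% of the arrays of a group and above the floor on at least 3 arrays were kept (22812 probes), and the brightest stood for its gene. All 33 arrays were fitted together in limma 3.58.1 (R 4.3.3, statmod 1.5.0), with 25 residual degrees of freedom and Benjamini-Hochberg adjustment over 15930 genes. Tables and plots used Python 3.11.15, pandas 2.3.3 and matplotlib 3.10.9. The fit was tested on simulated data. Replicates of a group correlated at 0.929 to 0.983 over 57 pairs, and the number of arrays limits the precision. No column of sample values was left unused.

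Named genes were a fixed set of well-known members, up to 6 called members of largest change per comparison, members called in the same direction in at least 4 of the 6 comparisons with IVF blastocysts, and up to 4 examples per gene list. Cct4, Cct5, Dnajc15, Dnajb6 and the members listed for CA1 against Sertoli clones were singled out after their values were seen. Members and lists were chosen with earlier results of these data known. Alternatives were other scalings (quantile, array median), normexp with an offset of 50 on the median signal because some files lack the mean signal, other filters and floors, the mean of a gene's probes, fits of only the groups compared, slide and replicate number as blocks, and each array left out in turn. Leaving out Purkinje arrays of low signal, the slide as a fixed block and the slide of both sexes were chosen after seeing the data.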

Additional observations from a re-analysis of the deposited data

Results flagged for a closer look

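Values of 1 blastocyst stood far from the rest of its group in 10 of 230 pairs of a named member and a group, or 4.35%, where chance gives about 5%. Among female Purkinje clones, replicate 1 was highest for Dnajc4 (3.09, next 2.29) and lowest for Hspa4 (6.20, next 6.88) and Hspa8 (8.31, next 9.17). That array had the highest 75th percentile of its group, 838. Replicate 4 of the same group was lowest for Hspa4l (0.32, next 1.04).

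For Hsp90aa1, male IVF replicate 5 was lowest (7.21, next 8.46) and female CA1 replicate 1 highest (8.36, next 7.90). Blastocysts that alone left the floor were Sertoli replicate 4 (-2.35), male IVF replicate 6 (-3.34) and female Purkinje replicate 4 (-3.12) for Hspa1a, and Sertoli replicate 1 (-3.33) for Dnajc5b.

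The effect of CA1 cloning on Hspb9 differed between males and females by -1.74 in a test of that difference (adjusted p = 0.0282, limma), at levels near the floor.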

How the results depend on the processing

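Over 130 calls of named members, 2676 alternative fits kept 2092, lost 574 and reversed 10, and 15 calls were neither lost nor reversed in any alternative run, among them Dnajb4 in the 3 male clone groups and in female CA1 clones. Counts of called members that moved by over 1.5 times are given here against those of the report. Shares of all genes stand beside them only for quantile and median scaling. The other counts, also those with arrays left out, do not show whether the members moved more than all genes. With normexp they were 17 (male Purkinje minus IVF), 11 (male CA1 minus IVF), 8 (Sertoli minus IVF), 12 (female Purkinje minus IVF), 2 (female CA1 minus IVF), 1 (cumulus minus IVF), 7 and 0 (Purkinje minus CA1, male and female), 2 and 1 (Purkinje and CA1 minus Sertoli), 0 (IVF male minus female) and 0 (CA1 effect by sex). With quantile normalization they were 17 (female CA1 minus IVF), 17 and 4 (Purkinje minus CA1, male and female) and 4 (Purkinje minus Sertoli). In that order, all genes were 4.97% higher and 6.6% lower, 7.83% and 9%, 4.41% and 4.33%, and 2.14% and 1.41%. With the array median they were 17 (male Purkinje minus IVF, all genes 6.5% higher and 16% lower), 16 (male Purkinje minus CA1, 4.98% and 7.21%), 4 (Purkinje minus Sertoli, 1.1% and 1.38%), 6 (CA1 minus Sertoli, 2.86% and 4.42%) and 2 (CA1 effect by sex, 0.433% and 0.678%). The median of all genes then moved by -0.36 in female Purkinje minus CA1, by -0.20 in IVF male minus female, and by 0.19 and -0.14 in the Purkinje and CA1 effects by sex. Fits of only the groups compared gave 10 (female Purkinje minus IVF), 3 (female CA1 minus IVF), 2 (cumulus minus IVF), 5 (female Purkinje minus CA1), 4 (Purkinje minus Sertoli) and 0 (IVF male minus female). The mean of a gene's probes gave 5 and 7 (Purkinje and CA1 minus Sertoli) and 2 (cumulus minus IVF), no filter gave 2 (cumulus minus IVF), and a lower floor gave 0 (CA1 effect by sex). The slide as a random block gave 8 (female Purkinje minus CA1), 7 (CA1 minus Sertoli) and 2 (cumulus minus IVF), while the slide as a fixed block and the slide of both sexes gave 0 (IVF male minus female). Without the Purkinje arrays of low signal, which leaves 1 female array that is assumed to vary like the other groups, they were 10 and 0 (male and female Purkinje minus IVF), 6 and 0 (Purkinje minus CA1) and 1 (Purkinje minus Sertoli). Replicate numbers did not pair the samples (same-number correlations -0.24 to 0.32, 15 of 99 over 0.1). With the replicate number as a block, IVF male minus female gave 0 calls and no other count moved by over 1.5 times.

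With each array left out in turn, the counts ran from 21 to 30 (male Purkinje minus IVF), 17 to 23 (male CA1 minus IVF), 12 to 20 (Sertoli minus IVF), 12 to 18 (female Purkinje minus IVF, 12 without female IVF replicate 1), 6 to 9 (female CA1 minus IVF), 1 to 4 (cumulus minus IVF), 18 to 27 and 5 to 13 (Purkinje minus CA1, male and female), 6 to 12 and 2 to 10 (Purkinje and CA1 minus Sertoli), 0 to 2 (IVF male minus female), and 0 to 1 and 0 to 3 (Purkinje and CA1 effects by sex). Cumulus minus IVF gave 1 without female IVF replicate 1 or cumulus replicate 2, and 2 without female IVF replicate 2 or cumulus replicate 1. Female Purkinje minus CA1 gave 5 without Purkinje replicate 2 or 4, and 7 without Purkinje replicate 3 or CA1 replicate 4. CA1 minus Sertoli gave 2 without CA1 replicate 4, 4 without CA1 replicate 3, and 6 or 7 without any 1 Sertoli array. IVF male minus female gave 0 without female replicate 1 or 3, and 2 without female replicate 2 or male replicate 4. The CA1 effect by sex gave 0 without female CA1 replicate 1 or 4, male CA1 replicate 3 or 4, or female IVF replicate 1 or 3, 2 without male CA1 replicate 2, and 3 without female IVF replicate 2. The Purkinje effect by sex gave 1 without female IVF replicate 2.

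The reversed values were, with normexp, Cct2 (-0.12) and Dnajc9 (-0.059) in male Purkinje minus IVF and Hspa4 (-0.034) in male Purkinje minus CA1. With the mean of probes they were Dnajc5 (0.037) in male CA1 minus IVF, Dnajc9 in Sertoli (-0.21) and female CA1 (-0.025) minus IVF, and Cct2 (-0.015) and Dnajc5 (-0.054) in male Purkinje minus CA1. With quantile normalization they were Hspd1 in female Purkinje minus CA1 (-0.048) and in Purkinje minus Sertoli (-0.031). The cause of these shifts was not tested.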
